A study of Mus musculus with 18 samples.

Results

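The response of Gli2A transgenic (Gli2A Tg) CD4 T cells to 6 h with antibodies against CD3 and CD28 was read from 6 of the 18 Affymetrix arrays of a mouse series on Hedgehog signalling. The arrays were chosen by sample title: 3 of unstimulated and 3 of stimulated Gli2A Tg cells. The other 12 arrays held the same 2 conditions in wild-type (WT) and Gli2R transgenic (Gli2R Tg) cells, 3 arrays a group. They share the normalization and the estimate of spread behind every p-value here, and their own values are printed only for comparison. With the 6 Gli2A Tg arrays fitted alone 6822 genes were called, against 7812 below. All mice were on the C57BL/6 background, aged 9 to 15 weeks, and CD4 cells were taken from the spleen with magnetic beads. The resting cells were taken fresh, and cells held for 6 h without antibody are not analysed here, so stimulation and time in culture cannot be told apart. Gli2A and Gli2R name an activator and a repressor form of Gli2. The sources used here give neither the promoter that drives each transgene nor whether replicates were separate mice, so p-values measure only the spread between these samples.

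Antibodies against CD3 and CD28 stand in for antigen and co-stimulation. They engage the T cell receptor complex and the CD28 receptor, and the calcium, MAP kinase and NF-kB pathways behind them switch on transcription factors such as NFAT, AP-1 and NF-kB. Within hours a resting T cell then makes cytokines, takes up more glucose and amino acids and builds ribosomes, before it divides. Hedgehog ligands act through the Gli family of DNA-binding proteins, Gli2 among them, and a textbook target of that pathway, Ptch1, encodes the Hedgehog receptor.

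Levels are given as log2 of the deposited value plus 16, after quantile normalization, with 1 probe set for each of 18193 genes. A level near 4 therefore means a value near 0, and the quartiles of all gene levels were 5.37, 7.06 and 9.73. Differences are stimulated minus resting group means on this scale with their standard error (SE), and genes with a limma adjusted p under 0.05 are referred to as called. Among all 18193 genes 7812 were called, which is 42.9%. Of them 3666 were higher in stimulated Gli2A Tg cells (20.2% of genes) and 4146 lower (22.8%). Counts of rises and falls in the gene lists below are to be read against these shares. The call was made with a change over 2-fold for 2064 genes upward and 2832 downward, and over 16-fold for 25 upward and 120 downward. The median difference of all genes was 0.0039. When each array was centred on its median instead it was 0.11, and with the deposited scaling alone it was -0.064.

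Stimulation parted the 6 arrays along the first principal component, which held 73.3% of their variance. Arrays of the same condition correlated at 0.973 to 0.981 and arrays of different conditions at 0.887 to 0.897. Resting replicate 3 stood apart on the second component and stimulated replicate 2 on the third, and results that rest on them are given without them below. The ratio of 3′ to 5′ Gapdh probe sets, a sign of RNA length, was 0.826 to 1.13 in resting and 1.71 to 2.15 in stimulated arrays, and the same ratio for actin reached 3 in stimulated replicate 2 against 1.26 to 1.82 in the other 5. The part of RNA length in the results was not tested. Xist, the RNA of the inactive X chromosome, read 12.83 to 14.46 in the 6 Gli2A Tg arrays and the Y-linked Eif2s3y read 4.11 to 5.34.

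The labelled cell type was checked against 13 measured genes of CD4 T cell identity. In both conditions the group means of all 13 lay above the median gene level of 7.06, the lowest being Ubash3a after stimulation at 9.06 ± 0.27 (SD, n = 3). Stimulation changed 8 of them, with Cd28 higher and 7 genes lower, and the median difference was -0.80. Cd3e, a signalling chain of the T cell receptor complex, read 13.35, 13.42 and 13.30 in the 3 resting arrays and 10.11, 10.31 and 10.80 in the 3 stimulated arrays. The groups were apart by over 2 log2 units, and Cd3e fell by 2.95 ± 0.21 (SE, adjusted p = 3.56e-08). Cd3d fell by 1.80, Cd3g by 1.75, the surface glycoprotein gene Thy1 by 1.26 and Cd4 itself by 1.08 on the same scale. Cd4 was read 11.40, 11.66 and 10.79 at rest and 10.37, 10.03 and 10.21 after stimulation. Its call was lost when its 2 probe sets were averaged (adjusted p = 0.0573). Cd28, the co-stimulatory receptor that the antibody binds, rose by 0.96 ± 0.20. In these bulk samples fewer cells of a type and less RNA per cell cannot be told apart.

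**Figure D1:**
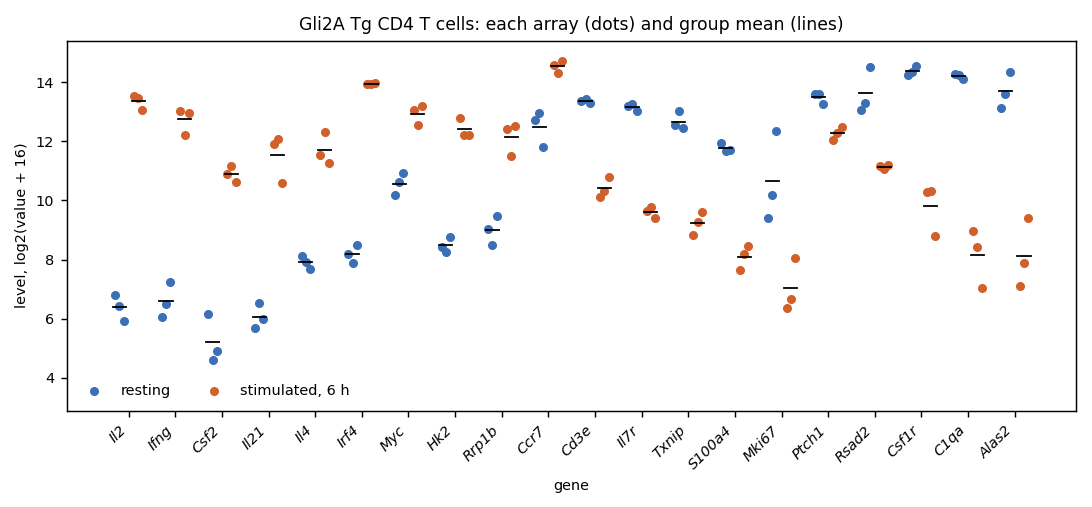
Level of 20 genes, as log2(value + 16), in each of the 3 resting (blue dots) and 3 stimulated (orange dots) arrays of Gli2A Tg cells; black lines are group means. Il2 moves from near 6 to near 13 and C1qa from near 14 to 7 to 9, and in each of the 20 genes the 3 dots of a condition lie apart from the 3 of the other.

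Cytokine genes were among those with the largest rises. Among 22 measured cytokine ligand genes, 13 rose and 2 fell, against 20.2% and 22.8% of all genes, and the median difference was 1.72. Il2, the growth factor that activated T cells make for themselves, read 6.81, 6.43 and 5.92 in resting and 13.54, 13.45 and 13.06 in stimulated arrays. All 3 stimulated values lay over 6 units above the highest resting one, and the difference of 6.96 ± 0.22 (125-fold, adjusted p = 5.41e-11) was the largest rise of any gene. Ifng, the macrophage-activating cytokine of type 1 helper cells, read 6.07, 6.51 and 7.25 at rest and 13.02, 12.23 and 12.97 after stimulation, a rise of 6.12 ± 0.47. Csf2, which encodes the growth factor GM-CSF, moved from 6.15, 4.62 and 4.90 to 10.88, 11.18 and 10.62 and rose by 5.67 ± 0.37. Its resting values lie close to the level of 4 that a value of 0 gives, so its fold is compressed by the added constant.

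Helper cytokines of several kinds rose in the same cells. Il21, which helps B cells in germinal centres, had resting values of 5.68, 6.53 and 6.01 and stimulated values of 11.92, 12.06 and 10.59, a rise of 5.45 ± 0.66. Il4, the signature cytokine of type 2 helper cells, read 8.14, 7.93 and 7.69 and then 11.54, 12.33 and 11.28, a rise of 3.80 ± 0.37 (adjusted p = 7.51e-07). In both genes the groups were far apart, and stimulated replicate 3 was the lowest stimulated array. Il17a, the neutrophil-recruiting cytokine of Th17 cells, rose by 3.68 ± 0.49, Tnf by 3.80 ± 0.30, Lif by 5.26 ± 0.45, Lta, which encodes lymphotoxin, by 2.68 and Il5 by 2.28. Il3 (difference 0.21), Il13 (0.43) and the anti-inflammatory Il10 (-0.12) were not called. Tgfb1, which encodes the immunosuppressive cytokine TGF-beta, and Ltb, a membrane partner of lymphotoxin, were the members that went down. Tgfb1 fell by 2.34 ± 0.18 and Ltb by 2.66 ± 0.27 on the log2 scale.

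Promoter sequences are given for Il2, Ifng and Irf4, which hold 3 of the 4 largest rises, so that the letters next to these transcription starts can be read. They come from RefSeq (GRCm38.p6), run from 250 bases before to 50 bases after the start, and are written 5′ to 3′ on the gene's strand. Capitals mark a match, on either strand, to the NFAT core GGAAA, which is TTTCC on the opposite strand.
Il2 (chr3:37125905-37126204, minus strand): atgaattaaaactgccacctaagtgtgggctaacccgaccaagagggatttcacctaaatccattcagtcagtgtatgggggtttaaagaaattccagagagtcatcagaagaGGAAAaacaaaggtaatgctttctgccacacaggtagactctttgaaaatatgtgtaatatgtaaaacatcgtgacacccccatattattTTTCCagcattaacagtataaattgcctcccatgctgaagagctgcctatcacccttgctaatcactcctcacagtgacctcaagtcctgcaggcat
Ifng (chr10:118440796-118441095, plus strand): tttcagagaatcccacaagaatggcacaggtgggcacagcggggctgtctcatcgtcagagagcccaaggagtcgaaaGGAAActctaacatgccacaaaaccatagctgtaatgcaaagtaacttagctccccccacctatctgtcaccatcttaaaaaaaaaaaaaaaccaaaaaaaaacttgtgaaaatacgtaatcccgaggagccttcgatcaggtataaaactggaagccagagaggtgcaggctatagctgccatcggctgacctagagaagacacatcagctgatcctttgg
Irf4 (chr13:30748983-30749282, plus strand): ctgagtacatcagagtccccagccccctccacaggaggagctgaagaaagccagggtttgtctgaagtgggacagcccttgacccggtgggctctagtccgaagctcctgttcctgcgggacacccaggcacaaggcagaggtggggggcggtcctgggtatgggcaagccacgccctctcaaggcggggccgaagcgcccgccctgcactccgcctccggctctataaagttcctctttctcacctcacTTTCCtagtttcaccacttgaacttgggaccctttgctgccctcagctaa
The Il2 window held the core at 137 and 47 bases upstream of the start, the Ifng window at 172 bases upstream, and the Irf4 window at the start itself. The core is short: it stood in 16 of 18 cytokine promoters in the table (88.9%) and in 59.3% of the promoters of all 14368 measured genes that the table held. Its share in the other lists searched ran from 40% (glycolysis and hypoxia) to 85.7% (interferon-stimulated genes). The windows of Hebp1, Spic and Fcer1g, which were among the largest falls, held the core too. It lay 122 bases upstream, 42 bases after the start and 169 bases upstream. The AP-1 motif TGANTCA, searched on both strands, stood in 4 of the 18 cytokine promoters (22.2%) and in 6.29% of all promoters. Its share in the other lists searched ran from 0% to 28.6%. The highest was that of the interferon-stimulated genes, of which 3 of 29 rose. None of the windows of Il2, Ifng and Irf4 held the AP-1 motif. A match is a run of letters and does not show that a factor binds there.

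Transcription factors of activation rose with the cytokines. Of 21 immediate early, AP-1 and Nr4a factor genes, 14 rose and 3 fell, with a median of 1.85. The Nr4a genes encode orphan nuclear receptors that follow receptor signalling: Nr4a3 rose by 4.50 ± 0.17 and Nr4a1 by 4.12 ± 0.31. Among AP-1 members and relatives, Fosl2 rose by 4.17 ± 0.20, Fosl1 by 2.64, Atf3 by 2.18 and Batf, a partner of Irf4, by 1.78. The zinc finger factor gene Egr2 rose by 2.68, while its relative Egr1 was not called (-0.08). Jun, the prototype AP-1 subunit, read 11.28, 9.19 and 9.32 at rest and 8.16, 6.37 and 7.74 after stimulation and fell by 2.51 ± 0.71 on the log2 scale. That call ended without resting replicate 1 (-1.83, adjusted p = 0.0548) or stimulated replicate 2 (-1.98, adjusted p = 0.0512), and the other probe set of Jun differed by 0.08. Without stimulated replicate 2 the list held 1 fall. Fos (-1.12) and Junb (1.04) were not called.

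Among 23 transcription factors of effector fate, 9 rose and 4 fell. Irf4, which scales T cell expansion with receptor strength, read 8.18, 7.89 and 8.51 in resting and 13.94, 13.94 and 13.96 in stimulated arrays. The stimulated values were within 0.02 of each other and the rise was 5.75 ± 0.25 (adjusted p = 9.43e-10). Bhlhe40, a regulator of cytokine output, rose by 2.98, Irf8 by 2.70 and Eomes by 1.74. Tbx21, the master regulator of type 1 cells, rose by 0.83 ± 0.25, a call that ended without resting replicate 2 (0.74, adjusted p = 0.0554), stimulated replicate 1 (0.63, adjusted p = 0.0799) or stimulated replicate 3 (0.70, adjusted p = 0.0639). Gata3, its type 2 counterpart, was not called (-0.14), nor was Foxp3, the factor of regulatory T cells (-0.71). Under 9 of 17 alternatives, however, Foxp3 was called lower. Id3 fell by 2.10, Prdm1 by 1.36 and Maf by 1.22 on the log2 scale.

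NF-kB genes followed. Of 17 subunits, inhibitors and adaptors, 10 rose and 3 fell (median 1.27). The subunit genes Rel, Relb and Nfkb2 rose by 2.22, 2.31 and 1.96, and the inhibitor family genes Nfkbid, Bcl3 and Nfkbib by 3.78, 3.03 and 1.78. Tnfaip3, which encodes the A20 brake on the pathway, rose by 1.92. Rela was not called (0.15), nor was Nfkbia (0.30). The NF-kB motif was found, on either strand, in 7 of the 15 promoters of this list that the table held (46.7%), against 9.74% of all promoters. Its share in the other lists searched ran from 3.7% to 33.3%, with 28.6% in the interferon-stimulated genes.

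Surface receptors that act after priming rose widely. Among 17 TNF superfamily genes, 11 rose and 1 fell, with a median of 1.58. Tnfrsf9 (4-1BB) rose by 3.24 ± 0.19, Tnfrsf4 (OX40) by 2.98 ± 0.24, Tnfsf11 (RANKL) by 3.09 ± 0.24 and Fasl, the death ligand, by 2.93 ± 0.21. The CD40 ligand gene Cd40lg was not called, with a difference of 0.018. In the CD28 family and the inhibitory receptors 9 of 18 rose and 4 fell. The early activation marker Cd69 rose by 3.79 ± 0.33 and Icos by 2.45, and the inhibitory receptor genes Ctla4 and Pdcd1 rose by 2.34 and 1.28. Cd244a, Cd96 and Cd160, receptors shared with natural killer cells, fell by 2.94, 2.73 and 2.63 on the log2 scale. Markers of CD8 T and NK cells fell in 7 of 10 cases, Klrd1, Klrk1, Nkg7 and Prf1 among them, while Cd8a rose. The call of Cd8a ended under 1 of 17 alternatives. The part of such cells in those 3 falls was not tested.

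Cytokine receptor genes split. Of 22, 6 rose and 9 fell. The high-affinity IL-2 receptor chain Il2ra read 8.57, 8.99 and 8.06 at rest and 11.98, 11.87 and 11.96 after stimulation and rose by 3.40 ± 0.23, and Il15ra rose by 3.16. Both groups were well apart. Il7r, the receptor for the survival cytokine of naive T cells, went the other way, from 13.18, 13.26 and 13.02 to 9.63, 9.78 and 9.41, and fell by 3.55 ± 0.13 on the log2 scale, with an adjusted p of 1.91e-10. Il6ra fell by 3.57, Il18r1 by 3.51, and the interferon receptor genes Ifngr1, Ifnar1 and Ifnar2 fell by 1.34, 0.80 and 1.79 on the same scale.

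Genes of migration also split, with 6 of 16 chemokine and sphingosine receptor genes higher and 7 lower. Ccr8, a skin-homing receptor, rose by 4.21 ± 0.45. Ccr7, which guides T cells into lymph nodes, read 12.73, 12.96 and 11.82 and then 14.59, 14.30 and 14.71 and rose by 2.03 ± 0.22, and the oxysterol receptor gene Gpr183 rose by 1.77. S1pr1, the receptor for exit from lymphoid tissue, fell by 2.19 ± 0.22, Cxcr3 by 2.52 and Cxcr4 by 1.94 on the log2 scale. Ccr3 fell by 5.54, from 10.24, 9.25 and 10.09 to 4.17, 4.31 and 4.46. Ccr3 is a marker of eosinophils, and of the 9 basophil, mast cell and eosinophil markers 2 fell, Prg2 by 4.93 and Epx by 2.05 on that scale, 1 rose (Hdc, by 2.33) and 6 were not called. Among 16 chemokine ligand genes 5 rose, led by Cxcl10 (2.94) and Ccl1 (2.26), and 3 fell, among them Ccl5 by 2.64 on the log2 scale. The number of rises in that list was 3 without resting replicate 3 and stimulated replicate 2.

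Receptor signalling genes fell more often than they rose. Of 29 genes from the receptor to NFAT, 7 rose and 14 fell, with a median of -0.43 (-0.084 with median centring and -0.26 with the deposited scaling). The adaptor gene Lcp2 fell by 1.27 and the calcineurin subunit gene Ppp3ca by 1.79 on the log2 scale. The calcium channel gene Orai1 rose by 1.23 and Vav1 by 0.92. The adaptor gene Lat (-0.07) was not called. Feedback genes split too: 10 of 28 rose and 7 fell. Spry1, an inhibitor of MAP kinase signalling, rose by 4.89 ± 0.26, the ERK phosphatase gene Dusp5 by 4.14 ± 0.38, Cish by 2.98 and Socs1 by 1.81. Dusp6, another ERK phosphatase gene, fell by 4.16 ± 0.23 on the log2 scale. Dgka, whose product removes diacylglycerol, fell by 3.25 ± 0.19 on that scale.

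**Figure D2:**
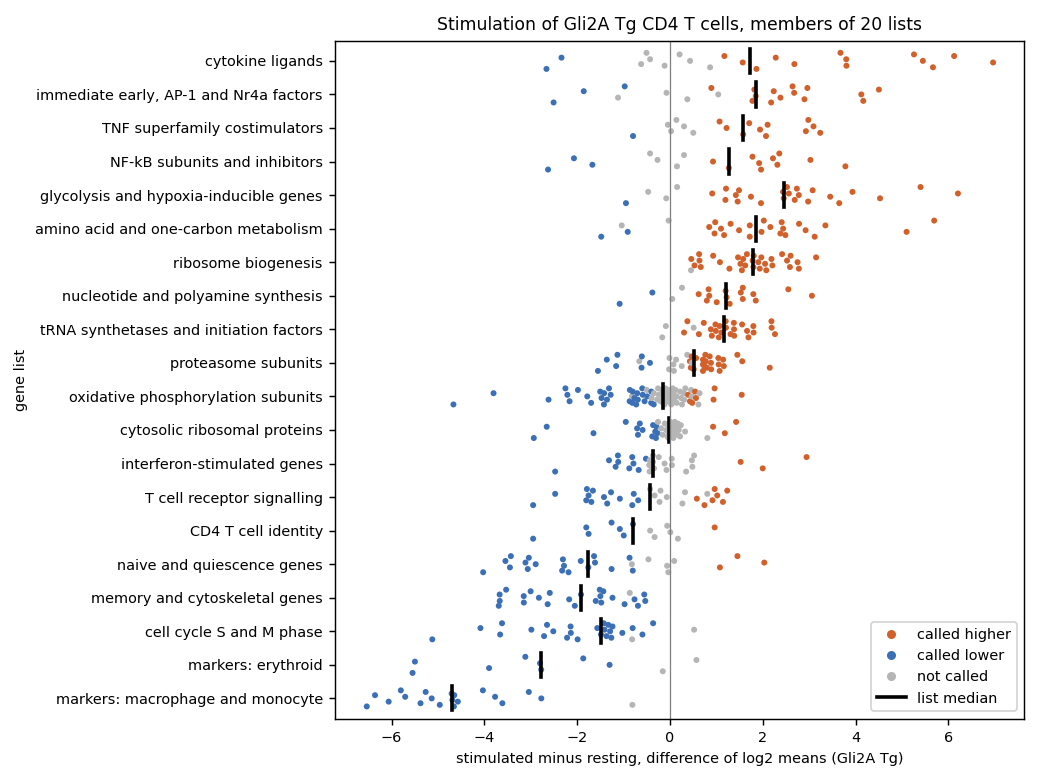
Difference between stimulated and resting Gli2A Tg cells (log2 means, horizontal axis) for each measured member of 20 gene lists; orange members were called higher, blue lower and grey not called, and the black bar is the list's median. The medians run from 2.45 for glycolysis and hypoxia genes to -4.70 for macrophage and monocyte markers.

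Genes of glucose use rose nearly as a block. Among 27 genes of glycolysis and the hypoxia response, 23 rose and 1 fell, and the median of 2.45 was the highest of the lists. These 27 include Pigq, which entered through the listed name Gpi1 and is not a gene of glycolysis. Hk2, the hexokinase that traps glucose in the cell, read 8.41, 8.26 and 8.77 in resting and 12.79, 12.22 and 12.23 in stimulated arrays. No values overlapped, and the rise was 3.93 ± 0.23 (15.3-fold, adjusted p = 5.1e-09). The glucose transporter gene Slc2a1 rose by 2.98 ± 0.18, the phosphofructokinase gene Pfkl by 2.73, Tpi1 by 2.56 and Ldha, which makes lactate, by 1.42. The oxygen sensor gene Egln3 rose by 5.40 ± 0.33, the adenylate kinase gene Ak4 by 6.21 ± 0.38 and Vegfa, the angiogenic factor, by 4.53 ± 0.27. Of the 5 probe sets of Ak4, the lowest differed by 0.37. Hif1a, the oxygen-regulated transcription factor, rose by 1.08. The member that fell, Pfkm, lost its call without any single array but resting replicate 1 (adjusted p of 0.0542 to 0.214). The hypoxia response core ACGTG stood, on either strand, in 14 of 25 promoters of this list (56%) and in 23.2% of all promoters. Its share in the other lists searched ran from 4.76% (interferon-stimulated genes) to 46.2% (TNF superfamily). The core lies within the E-box CACGTG.

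Amino acid and one-carbon genes rose in 22 of 26 cases and fell in 2, with a median of 1.85. Bcat1, which removes the amino group of branched-chain amino acids, read 5.60, 6.20 and 5.06 at rest and 11.29, 10.92 and 11.73 after stimulation and rose by 5.70 ± 0.24. Shmt1 and Shmt2, the cytosolic and mitochondrial enzymes that feed serine carbon to folate, rose by 5.10 ± 0.14 and 2.92 ± 0.17. The transporter genes Slc7a1, Slc7a5 and Slc1a5 rose by 2.38, 1.97 and 1.72, and the stress factor gene Atf4 by 2.02. Its usual target Asns was not called (-1.04) and Ddit3 fell by 0.91 on the log2 scale. In nucleotide and polyamine synthesis 15 of 19 genes rose and 2 fell (median 1.20). Ctps, the last step to CTP, rose by 3.06, and the polyamine enzymes Srm and Odc1 by 2.55 and 1.80. The falls there were Prps2 and Atic, whose calls ended under median centring. Calls also ended without stimulated replicate 1 in Prps2 (-0.35, adjusted p = 0.0598), without resting replicate 1 in Prps2 (-0.32, adjusted p = 0.0711), and without resting replicate 3 (-0.87, adjusted p = 0.0902) or stimulated replicate 2 (-0.57, adjusted p = 0.096) in Atic.

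Ribosome building rose. Of 32 ribosome biogenesis genes 31 rose, with a median of 1.79. Rrp1b read 9.03, 8.48 and 9.49 in resting and 12.43, 11.49 and 12.53 in stimulated arrays and rose by 3.15 ± 0.32, and Rrp9 and Polr1b, a subunit of the RNA polymerase for ribosomal RNA, rose by 2.75 and 2.59. Ncl, the member not called, had a difference of 0.45. Myc, the transcription factor that drives such genes in many cells, read 10.18, 10.62 and 10.92 and then 13.07, 12.55 and 13.20 and rose by 2.37 ± 0.22 (adjusted p = 3.93e-07). Max, its partner, fell by 1.66 on the log2 scale; this call ended without resting replicate 1 (-1.41, adjusted p = 0.0708), resting replicate 3 (-1.57, adjusted p = 0.0517) or stimulated replicate 2 (-1.26, adjusted p = 0.0866). The E-box CACGTG was found in 5 of 27 promoters of ribosome biogenesis genes (18.5%) and in 9.04% of all promoters. Its share in the other lists searched ran from 0% (cytokine ligands among them) to 23.1% (TNF superfamily). Among 28 tRNA synthetase and initiation factor genes 25 rose and the others were not called. Wars, Tars and Eif1a led with 2.26, 2.19 and 2.19.

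The genes of the finished machines moved less. Cytosolic ribosomal protein genes had a median of -0.016 (-0.44 with median centring and -0.62 with the deposited scaling), with 3 of 48 higher and 14 lower. The number lower was 30 under median centring, 36 with the deposited scaling, and 9 without resting replicate 3 and stimulated replicate 2. In the mitochondrial ribosome 27 of 76 genes rose and 16 fell. Oxidative phosphorylation subunits rose in 8 and fell in 31 of 82 cases, with a median of -0.15 that changed sign with median centring, where 18 rose. Proteasome subunits rose in 23 and fell in 7 of 39 cases. Psmb8, Psmb9 and Psmb10, the interferon-inducible catalytic subunits of the immunoproteasome, were among the falls, by 1.55, 1.13 and 1.36 on the log2 scale, while the other probe set of Psmb8 differed by 1.29. Their constitutive counterpart Psmb5 rose by 1.16. Chaperone genes rose in 15 of 21 cases, among them Hsph1 by 2.04 and Cct3, a subunit of the cytosolic chaperonin, by 1.65. Of 25 sterol and fatty acid genes 7 were higher (28%) and 9 lower (36%), against 20.2% and 22.8% of all genes. The rises were led by Acaca and Fasn of fatty acid synthesis (1.60 and 1.53). The falls were led by the cholesterol exporters Abcg1 and Abca1, which fell by 3.62 and 3.12 on the log2 scale.

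Most genes of the resting T cell state fell. Among 27 naive and quiescence genes 19 fell and 3 rose, with a median of -1.76. Txnip, which limits glucose uptake, read 12.54, 13.02 and 12.45 at rest and 8.83, 9.28 and 9.61 after stimulation and fell by 3.43 ± 0.21 on the log2 scale. Klf2, the factor behind S1pr1 and naive cell traffic, fell by 2.32 ± 0.21, Lef1 by 2.89 ± 0.19 and Foxo1 by 1.76 on that scale. Pik3ip1, a brake on PI3 kinase, fell by 3.12. The genes that rose were Ccr7, Bach2 (1.45) and Satb1 (1.08). Of 8 Gimap genes, a family of lymphocyte survival GTPases, 7 fell and the other was not called.

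Genes of memory cells, adhesion and the cytoskeleton fell in 24 of 25 cases, and the other member was not called (median -1.92). S100a4 read 11.93, 11.66 and 11.71 in resting and 7.66, 8.18 and 8.45 in stimulated arrays, with no overlap, and fell by 3.67 ± 0.23 on the log2 scale. The galectin genes Lgals3 and Lgals1 fell by 3.67 and 2.59 and the integrin gene Itgb7 by 3.15 on that scale. Several of these genes are also made by macrophages, whose markers fell in 19 of 20 cases. Their part in these falls was not tested.

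Genes of DNA synthesis and mitosis were lower at 6 h. Of 27 such genes 25 fell and the others were not called, with a median of -1.49. Mki67, the Ki-67 proliferation antigen, read 9.42, 10.17 and 12.36 at rest and 6.37, 6.65 and 8.07 after stimulation. Resting replicate 3 was the highest of the 6 by over 2 units, and stimulated replicate 3 the highest of its group. The gene fell by 3.62 ± 0.65 on the log2 scale, with an adjusted p of 0.000279, and Ube2c, Rrm2 and Birc5 fell by 5.12, 4.09 and 3.66. Erythroid precursors divide too, and their summed signal was highest in resting replicate 3, as given below; their part in these falls was not tested. Among 20 G1 genes 5 rose, with Cdk4 and Ccnd2, the kinase and cyclin that start the cycle, up by 1.52 and 1.22, and 10 fell. Rbl2, which encodes the pocket protein of resting cells, fell by 3.57, and the inhibitor gene Cdkn2d by 2.98 on that scale. In the BCL-2 family 3 of 14 genes rose and 3 fell (21.4% each), near the 20.2% and 22.8% of all genes. The death-promoting Bcl2l11 (Bim) rose by 2.69, and the protective Bcl2l1 rose by 1.94, while its lowest probe set differed by -0.35.

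Markers of macrophages and red cell precursors were high in the resting arrays and mostly low in the stimulated ones, while the lists for other cell types moved less or in both directions. Of 20 macrophage and monocyte markers 19 fell, with a median of -4.70. Csf1r, the receptor for the macrophage growth factor, read 14.23, 14.34 and 14.55 at rest and 10.28, 10.32 and 8.80 after stimulation, and C1qa, a complement chain made by tissue macrophages, read 14.29, 14.23 and 14.11 and then 8.96, 8.42 and 7.05. The groups of both genes were apart by over 3 units. Csf1r fell by 4.57 ± 0.36 and C1qa by 6.06 ± 0.46 on the log2 scale, with an adjusted p of 5.89e-08 for C1qa. Spic and Slc40a1, the transcription factor and the iron exporter of red pulp macrophages, fell by 6.54 and 6.36. The intensities of the 20 markers summed to 152397 to 169170 in the resting arrays and 2682 to 6886 in the stimulated ones. Itgam, the member not called, was low in both conditions (5.46 ± 0.42 (SD, n = 3) and 4.65 ± 0.16).

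Erythroid markers fell in 8 of 10 cases, and the others were not called (median -2.79). Alas2, the first enzyme of heme synthesis in red cell precursors, read 13.12, 13.60 and 14.35 at rest and 7.12, 7.90 and 9.40 after stimulation and fell by 5.55 ± 0.59 on the log2 scale. The summed erythroid intensity was 23047 to 63340 at rest, highest in resting replicate 3, and 1852 to 3801 after stimulation. Plasma cell markers fell in 4 of 4 cases, neutrophil markers in 5 of 8, dendritic cell markers in 6 of 9 and B cell markers in 5 of 12. In the B cell, CD8 T and NK cell, and endothelial and stromal lists 1 marker each rose (Pax5, Cd8a and Kdr). Of the dendritic cell list, the MHC class II genes H2-Eb1 and Cd74 fell by 3.22 and 4.12. Platelet markers fell in 2 of 6 cases (1 without resting replicate 1 or 2 or stimulated replicate 1 or 2) and had a median of 0.14, and endothelial and stromal markers fell in 1 of 7, with a median of -0.079. The B cell median was -0.52. The gene with the largest fall of all, the heme-binding protein gene Hebp1, moved from 12.91, 12.21 and 13.20 to 6.35, 4.37 and 4.72 and fell by 7.63 ± 0.54 on the log2 scale. The immune receptor adaptor gene Fcer1g fell by 6.26 and the lymphocyte surface gene Cd7 by 5.63. Some large falls differed between probe sets: Hnrnpl fell by 5.56, while its other probe set differed by 0.47. Such disagreement was not rare among the named genes, as counted in the last section.

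**Figure D3:**
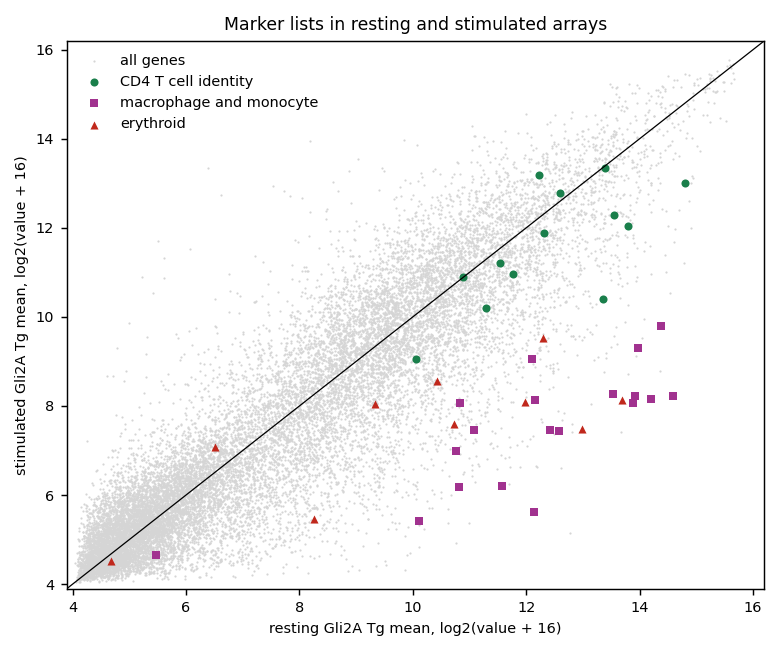
Mean level of each gene in the 3 stimulated (vertical axis) against the 3 resting (horizontal axis) Gli2A Tg arrays, both as log2(value + 16), with all genes in grey and the line of equal levels in black. The CD4 T cell genes (green) lie at most 2.95 under the line, while all 20 macrophage and monocyte markers (purple) and 9 of 10 erythroid markers (red) lie under it.

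Within the Hedgehog pathway, 5 of 20 genes rose (25%) and 3 fell (15%), against 20.2% and 22.8% of all genes. The counts were 3 higher without stimulated replicate 2, and 3 higher and 5 lower without resting replicate 3. Gli2 was read by 2 probe sets near the lowest quartile of all genes (5.39 ± 0.62 at rest and 4.37 ± 0.29 after stimulation, SD, n = 3, for the brighter). The brighter one was not called (-1.01, adjusted p = 0.0559), the other differed by 0.68, and the sources used here do not say whether these lie in the transgene. Ptch1 read 13.59, 13.60 and 13.28 in resting and 12.05, 12.27 and 12.48 in stimulated Gli2A Tg arrays and fell by 1.22 ± 0.16 on the log2 scale, with an adjusted p of 1.13e-05. All 3 stimulated values lay below the resting ones and above every WT and Gli2R Tg array, whose group means ran from 10.09 to 10.40. The 3 probe sets of Ptch1 differed by -1.22 to -0.16. Stimulation also changed Ptch1 by -0.23 in WT and -0.31 in Gli2R Tg cells, and the difference between the effects in Gli2A Tg and WT cells was -0.99 ± 0.22 (adjusted p = 0.139). Gli1, a common target of the pathway, was not called (0.12). Shh, the Sonic hedgehog ligand gene, rose by 2.06 ± 0.48, from 5.28, 4.42 and 5.27 to 7.39, 6.14 and 7.61, with 2 of the 3 stimulated values above the median gene level. Spop, which encodes an adaptor for the degradation of Gli proteins, fell by 1.02 on the log2 scale, while its highest probe set differed by 0.07. The Ptch1 promoter window in the table (GRCm38.p6, chr13:63565686-63565985, minus strand) held no match to the GLI motif GACCACCCA, which says only that these letters are not in that window.

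In the TGF-beta pathway 4 of 17 genes rose (23.5%) and 6 fell (35.3%), against 20.2% and 22.8% of all genes. There were 2 rises without resting replicate 3, and 2 rises and 10 falls without both that array and stimulated replicate 2. The repressor gene Tgif1 rose by 1.84, and the receptor genes Tgfbr3 and Tgfbr2 fell by 2.12 and 1.77 on the log2 scale. The highest of the 3 probe sets of Tgfbr2 differed by 0.49. In the Notch pathway 2 of 17 rose (11.8%) and 5 fell (29.4%). Rbpj, the DNA-binding partner of Notch, rose by 0.71, Hes1, a direct target, fell by 1.35, and Notch1 was not called (0.57). Regulatory T cell genes held 4 rises and 6 falls among 16. The ectonucleotidase genes Entpd1 and Nt5e, which together make adenosine, fell by 2.42 and 2.10 on the log2 scale.

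The stimulation effect of Gli2A Tg cells was then tested against that of the other genotypes, as a difference of differences. Few genes passed. Against WT cells 2 of 18193 genes were called (0.011%), both with a more negative effect in Gli2A Tg cells, and 1845 had an unadjusted p under 0.05. Against Gli2R Tg cells 20 were called (0.11%), 6 with a more positive and 14 with a more negative effect, and 1935 had an unadjusted p under 0.05. Both comparisons use the same 6 Gli2A Tg arrays, and each of the 2 genes called against WT cells was also called against Gli2R Tg cells. The counts moved with single arrays. Against WT cells the count was 14, 5 and 6 without resting Gli2A Tg replicates 1, 2 and 3, 4 and 1 without stimulated Gli2A Tg replicates 2 and 3, 4, 1 and 8 without resting WT replicates 1, 2 and 3, and 5, 4 and 5 without stimulated WT replicates 1, 2 and 3. Against Gli2R Tg cells it was 34, 13 and 13 without resting Gli2A Tg replicates 1, 2 and 3, 11 and 6 without stimulated Gli2A Tg replicates 1 and 2, 7 without resting Gli2R Tg replicate 2 and 6 without stimulated Gli2R Tg replicate 1. The arrays also differed in sex-linked genes: Xist lay above Eif2s3y in all 6 Gli2A Tg arrays, in 1 of 3 resting and 2 of 3 stimulated WT arrays, and in 3 of 3 resting and 1 of 3 stimulated Gli2R Tg arrays. Its part in these differences was not tested.

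Pmepa1, an inhibitor of TGF-beta signalling that TGF-beta itself induces, read 11.06, 10.79 and 10.49 in resting and 9.27, 9.39 and 9.28 in stimulated Gli2A Tg cells and fell by 1.47 ± 0.21 on the log2 scale. In WT cells it read 7.35, 7.90 and 7.96 at rest and 8.75, 8.96 and 8.90 after stimulation, so the 2 genotypes moved in opposite directions. The effects differed by -2.60 ± 0.30 from WT (adjusted p = 0.00634) and by -1.95 ± 0.30 from Gli2R Tg cells (adjusted p = 0.0186). The adjusted p against WT ranged from 0.000194 to 0.0382 over 23 alternatives. Against Gli2R Tg cells the call ended, with adjusted p of 0.0509 to 0.0609, without resting replicate 2 or stimulated replicate 1 or 2 of Gli2A Tg cells, or without resting replicate 2 or stimulated replicate 1 or 2 of Gli2R Tg cells.

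Fewer of the genes induced by interferon rose in Gli2A Tg cells than in the other genotypes. Of 29 such genes 3 rose (10.35%) and 10 fell (34.48%) in Gli2A Tg cells, with a median of -0.37. Among all genes 20.2% rose and 22.8% fell. The median of the list moved with the arrays and the scaling. It was -0.20 without stimulated replicate 2, -0.17 without both that array and resting replicate 3, and -0.22 with median centring. In WT cells 17 were called higher and 2 lower (median 0.67), while the 15 rises and 3 falls of Gli2R Tg cells gave a median of 0.72. Of all 18193 genes 7584 were called in WT and 7703 in Gli2R Tg cells, against 7812 in Gli2A Tg cells. For WT and Gli2R Tg cells these were not split by direction. The effect was more negative than in WT cells for 29 of 29 genes and than in Gli2R Tg cells for 26 of 29. Among all 18193 genes it was more negative than in WT cells for 9139, and no such count was made against Gli2R Tg cells. The median difference of effects over all genes was -0.0024 from WT and -0.0020 from Gli2R Tg cells. The 29 genes were read on the same arrays, so they are not separate replicates. Single genes rarely passed the test of the difference: 18 of the 29 had an unadjusted p under 0.05 against WT cells and 16 against Gli2R Tg cells, but only Ifit1 was called against WT and only Ifit1 and Rsad2 against Gli2R Tg cells. At rest the mean of 26 of the 29 genes was above that of WT cells, and after stimulation 27 were below it. Tested 1 by 1 against WT cells (limma, adjusted p under 0.05), 4 of the 29 were called at rest and 0 after stimulation. None of these counts was made over all genes. The median difference from WT cells was 0.50 at rest and -0.46 after stimulation. Without resting replicate 3 and stimulated replicate 2 the effect was still below that of WT cells for 27 genes, and the median difference of effects was -0.78 against -0.84 with all arrays. The number of rises was then 5. The intensities of the 29 genes summed to 51391 to 72681 in resting Gli2A Tg arrays, highest in replicate 3, and to 42578 to 54777 in stimulated ones. The mean level of the 20 macrophage markers was 11.98 to 12.10 in resting Gli2A Tg and 11.18 to 11.89 in resting WT arrays, and the part of those cells in the interferon genes was not tested.

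Ifit1, which binds foreign RNA, read 10.84, 10.39 and 10.95 in resting and 10.14, 9.71 and 9.88 in stimulated Gli2A Tg arrays and 8.99, 9.28 and 9.32 and 11.40, 11.45 and 10.40 in WT arrays. It fell by 0.81 ± 0.25 on the log2 scale in Gli2A Tg cells while it changed by 1.88 in WT and 1.52 in Gli2R Tg cells. The effects differed by -2.70 ± 0.35 from WT (adjusted p = 0.0167) and by -2.34 ± 0.35 from Gli2R Tg cells (adjusted p = 0.0186). The fall itself lost its call without resting replicate 1 (adjusted p = 0.0502), resting replicate 3 (0.0609) or stimulated replicate 2 (0.06). The call against WT ended without resting WT replicate 2 (-2.74, adjusted p = 0.0595) or stimulated Gli2A Tg replicate 3 (-2.68, adjusted p = 0.0773). The call against Gli2R Tg cells ended, with adjusted p of 0.0503 to 0.0743, without resting replicate 3 or stimulated replicate 2 of Gli2A Tg cells or resting replicate 2 or stimulated replicate 1 of Gli2R Tg cells. Rsad2, the antiviral enzyme viperin, read 13.06, 13.30 and 14.50 at rest, highest in replicate 3, and 11.17, 11.07 and 11.19 after stimulation, and fell by 2.48 ± 0.30 on the log2 scale. Its effect differed by -3.83 ± 0.43 from Gli2R Tg cells (adjusted p = 0.00438), with adjusted p from 0.00036 to 0.0244 over 23 alternatives, and by -2.63 ± 0.43 from WT cells (adjusted p = 0.0736). Cxcl10 and Gbp3, which interferon gamma also induces, were among the 3 members that rose, by 2.94 and 1.52.

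The promoters of Rsad2 and Ifit1, chosen after their values were seen, are shown because they carry the interferon response element (ISRE), marked in capitals.
Rsad2 (GRCm38.p6, chr12:26456403-26456702, minus strand): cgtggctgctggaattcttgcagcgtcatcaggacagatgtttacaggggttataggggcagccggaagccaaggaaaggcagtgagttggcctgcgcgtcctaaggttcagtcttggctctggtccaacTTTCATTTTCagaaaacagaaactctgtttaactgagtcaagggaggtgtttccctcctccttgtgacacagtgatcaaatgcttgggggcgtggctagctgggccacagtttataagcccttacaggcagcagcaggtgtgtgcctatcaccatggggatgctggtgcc
Ifit1 (GRCm38.p6, chr19:34640639-34640938, plus strand): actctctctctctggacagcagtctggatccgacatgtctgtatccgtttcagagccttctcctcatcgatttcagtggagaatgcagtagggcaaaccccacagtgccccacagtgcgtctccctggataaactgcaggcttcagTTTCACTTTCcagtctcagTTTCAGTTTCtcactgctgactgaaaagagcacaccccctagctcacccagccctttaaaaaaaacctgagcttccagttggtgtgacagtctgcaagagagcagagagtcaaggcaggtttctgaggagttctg
The Rsad2 window held the element at 120 bases and the Ifit1 window at 104 and 85 bases upstream of the start. It was found on either strand in 13 of the 21 promoters of the interferon list that the table held (61.9%) and in 3.03% of all promoters. As for the other motifs, this describes the letters and not binding.

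**Figure D4:**
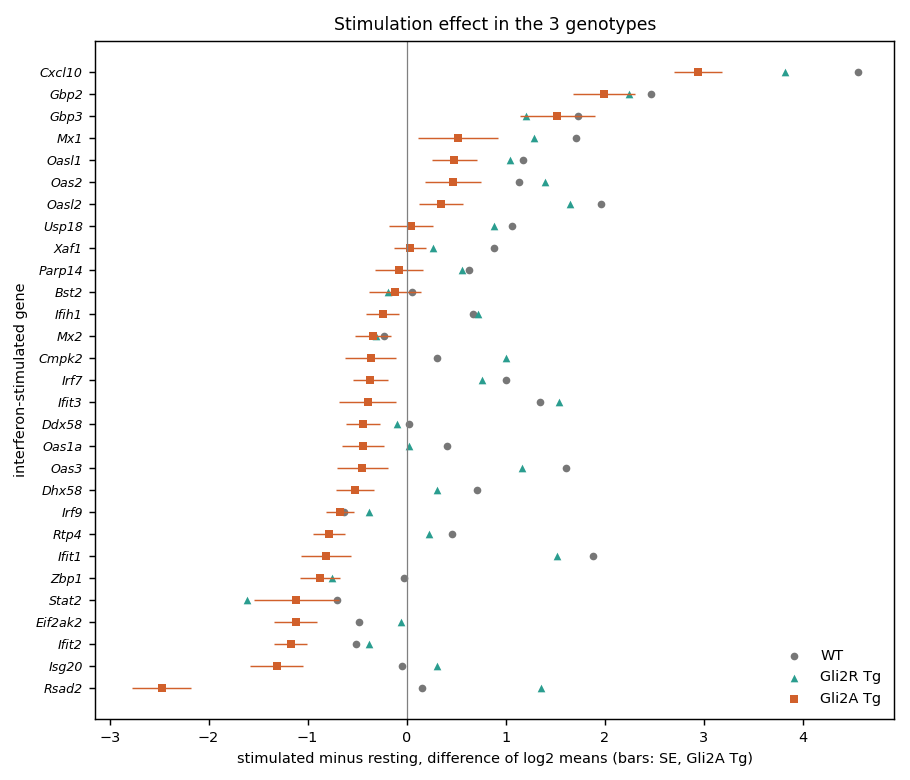
Stimulation effect (difference of log2 means, horizontal axis) of each of 29 interferon-stimulated genes in WT (grey circles), Gli2R Tg (green triangles) and Gli2A Tg cells (orange squares, with their SE). The Gli2A Tg square lies to the left of the WT circle for 29 of 29 genes and is farthest left for Rsad2. Among all 18193 genes the effect was more negative than in WT cells for 9139.

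Against Gli2R Tg cells, cytokine genes stood among the 6 more positive effects. Il4 was read at 7.26, 8.04 and 7.56 in resting and 7.91, 8.81 and 7.33 in stimulated Gli2R Tg arrays, which overlap, while the Gli2A Tg groups did not. The effects differed by 3.40 ± 0.52 (adjusted p = 0.019), and by 1.28 ± 0.52 from WT cells (adjusted p = 0.43). Csf2 differed by 3.07 ± 0.53 from Gli2R Tg cells (adjusted p = 0.0397) and by 0.96 ± 0.53 from WT cells (adjusted p = 0.569), and Ctf1, which encodes cardiotrophin, by 1.84 ± 0.30 from Gli2R Tg cells (adjusted p = 0.0284). Leaving out 1 array ended the call of Il4 in 5 of 12 cases (adjusted p up to 0.0728): resting replicates 2 and 3 and stimulated replicate 2 of Gli2A Tg cells, and resting replicate 2 and stimulated replicate 1 of Gli2R Tg cells. It ended the call of Csf2 in 11 of 12 cases, all but resting Gli2A Tg replicate 1 (up to 0.121), and of Ctf1 in 9 of 12 (up to 0.104), all but resting Gli2A Tg replicate 1, resting Gli2R Tg replicate 2 and stimulated Gli2R Tg replicate 2. Ifng and Il21 were not called in this comparison, with differences of 3.40 ± 0.67 (adjusted p = 0.0793) and 4.05 ± 0.93 (adjusted p = 0.119).

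Inducible heat shock genes were low in resting Gli2A Tg cells. Hspa1b, a stress-induced HSP70 chaperone gene, read 9.92, 9.40 and 8.74 in resting Gli2A Tg cells against 14.02, 13.91 and 12.31 in resting WT and 13.84, 14.23 and 13.77 in resting Gli2R Tg cells, while the stimulated groups overlapped. Its effect was 1.23 ± 0.44 in Gli2A Tg cells and -4.06 in Gli2R Tg cells, and these differed by 5.29 ± 0.62 (adjusted p = 0.00438). Its rise in Gli2A Tg cells lost its call without resting replicate 2 (1.25, adjusted p = 0.0671), resting replicate 3 (0.92, adjusted p = 0.147), stimulated replicate 1 (1.06, adjusted p = 0.113) or stimulated replicate 2 (1.12, adjusted p = 0.0969). Hspa1a differed by 4.83 ± 0.78 (adjusted p = 0.0284), a call that ended in 8 of 12 cases without 1 array (up to 0.104) and held without resting Gli2A Tg replicate 1, resting Gli2R Tg replicates 1 and 3 or stimulated Gli2A Tg replicate 3. The pair are near-identical copies whose signals may be shared.

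Among the more negative effects was Slc25a37, which imports iron into the mitochondria of red cell precursors. It read 11.60, 11.98 and 13.13 in resting Gli2A Tg and 9.07, 9.00 and 8.76 in resting Gli2R Tg arrays. Its effects differed by -3.22 ± 0.47 (adjusted p = 0.0155), a call that ended without resting Gli2R Tg replicate 2, stimulated Gli2A Tg replicate 2 or stimulated Gli2R Tg replicate 1 (adjusted p up to 0.0609). No member of the erythroid or macrophage lists was called in this comparison (limma), with an unadjusted p under 0.05 for 3 and 1 of them, and the effect was below that of Gli2R Tg cells for 8 of 10 and 11 of 20. That count was not made over all genes, whose median difference of effects was -0.0020. The mean level of the 10 erythroid markers was 9.48 to 11.04 in resting Gli2A Tg and 7.74 to 8.79 in resting Gli2R Tg arrays, and that of the 20 macrophage markers 11.98 to 12.10 and 10.73 to 11.12. After stimulation these levels were 7.09 to 8.07 and 6.36 to 7.37 for the erythroid and 6.77 to 7.76 and 6.27 to 6.75 for the macrophage markers. The effect was also more negative for Apoc1 (-2.51 ± 0.44), an apolipoprotein gene, Abca9 (-2.05 ± 0.26), a lipid transporter gene, Abcg3 (-1.89 ± 0.25) and Sdc3 (-1.97 ± 0.34). The part of these cells in the differences was not tested. Without 1 array the call of Apoc1 ended in 12 of 12 cases and that of Sdc3 in 11, all but resting Gli2A Tg replicate 1, and that of Abca9 and Abcg3 in none, with adjusted p up to 0.0323 and 0.0356.

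**Figure D5:**
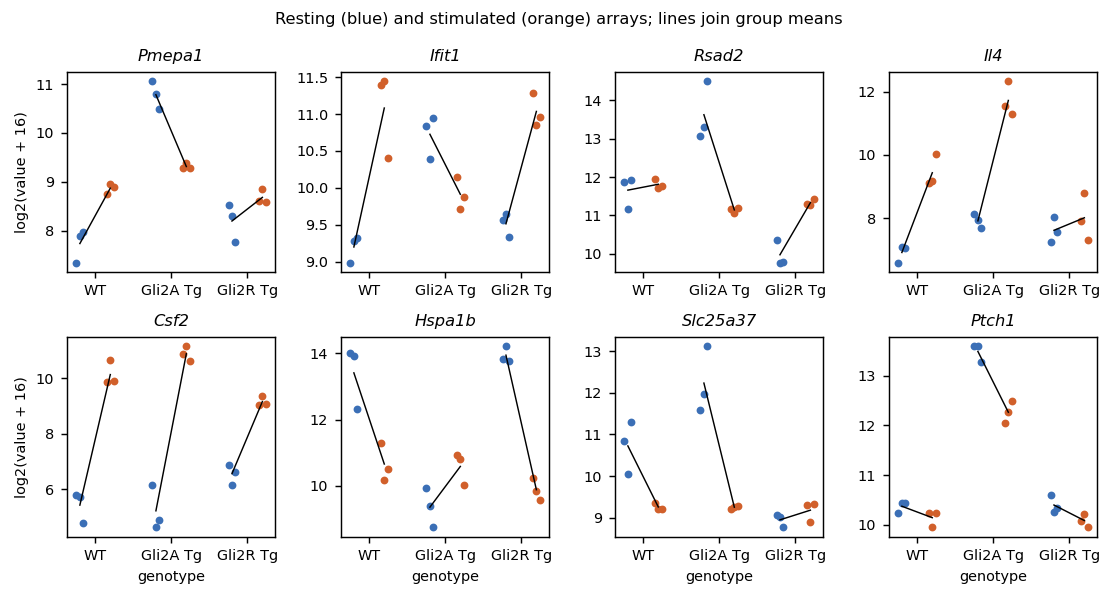
Level of 8 genes, as log2(value + 16), in each resting (blue) and stimulated (orange) array of WT, Gli2A Tg and Gli2R Tg cells; the lines join the group means. Pmepa1, Ifit1 and Rsad2 slope down in Gli2A Tg cells and Ifit1 and Pmepa1 slope up in WT and Gli2R Tg cells, Hspa1b does the opposite, and Ptch1 is highest in both Gli2A Tg groups.

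The 20 genes that an earlier reading of the resting arrays had named for Gli2A Tg against WT cells were followed through stimulation, as values only, since they were chosen on arrays used here. In Gli2A Tg cells 6 rose and 10 fell. Tmem88, an inhibitor of Wnt signalling, rose by 2.11, Dhx36 by 1.61 and the choline kinase gene Chka by 1.23 (0.86, adjusted p = 0.0647, with the deposited scaling). Fxyd7 moved from 8.08, 7.65 and 7.67 to 4.83, 5.93 and 5.97 and fell by 2.22 on the log2 scale, the granzyme gene Gzmm by 1.86, the prostacyclin receptor gene Ptgir by 2.45 and Baiap3 by 3.30. Igfbp4 and Dapl1, genes of naive T cells, fell by 1.92 and 3.07.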

How the data were processed

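RNA of 18 samples was hybridised to 1-colour Affymetrix mouse arrays. The authors deposited 1 linear intensity per probe set, with the affy package of R named per the submitters' processing notes (version not given in the sources used here). Every array had a trimmed mean of 500, so the deposited intensity values had been scaled. Per the labels, both Trizol and a Stratagene kit are named for RNA extraction. Each value plus 16 was taken to log2 and quantile normalized over all arrays. Of 45101 probe sets, 64 controls were left out, 34945 had 1 gene symbol, 932 several and 9160 none. The brightest one-symbol probe set stood for each of 18193 genes. limma 3.58.1 (R 4.3.3) fitted 6 group means to 18 arrays, and p-values were adjusted by Benjamini-Hochberg over all genes. The precision is limited by 3 arrays a group. The code was tested on simulated data.

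Genes were named by rule: the 20 largest rises and falls whose groups do not overlap, up to 5 called genes in each direction and up to 2 uncalled ones per list, and the 10 largest called differences from each genotype in each direction. Another 50 genes, and those in figures, were chosen after their values were seen. The members and lists were chosen with earlier results of these data known. Alternatives changed the scaling, constant, gene filter, probe set rule, variance model, weights, block and arrays.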

Additional observations from a re-analysis of the deposited data

Results flagged for a closer look

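The genes below were singled out because the test of the difference between stimulation effects passed. Against WT cells the effect in Gli2A Tg cells was lower by log2 differences of -2.70 for Ifit1 and -2.60 for Pmepa1. Against Gli2R Tg cells it was lower for Rsad2 (-3.83), Slc25a37 (-3.22), Cdr2 (-2.65), Apoc1 (-2.51), Ifit1 (-2.34), Ube2l6 (-2.23), Abca9 (-2.05), Sdc3 (-1.97), Pmepa1 (-1.95) and Abcg3 (-1.89). It was higher than in Gli2R Tg cells for Hspa1b (5.29), Hspa1a (4.83), Il4 (3.40), Csf2 (3.07), Kis2 (2.87) and Ctf1 (1.84). Ube2l6 encodes a conjugating enzyme for the interferon-induced modifier ISG15. Leaving out 1 array ended the call of Cdr2 in 9 of 12 cases (adjusted p up to 0.124), all but the 3 resting Gli2A Tg arrays. It ended that of Ube2l6 in 8 of 12 (up to 0.121), all but resting Gli2A Tg replicates 1 and 2, resting Gli2R Tg replicate 3 and stimulated Gli2A Tg replicate 3.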

How the results depend on the processing

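The count of 7812 called genes (3666 higher, 4146 lower) stayed within 1.5 times its value under every alternative run except testing probe sets one by one, which gave 14130 (7216 higher, 6910 lower; more features are tested). Leaving out 1 array gave 7156 to 7398 calls (3355 to 3486 higher, 3753 to 3916 lower). The 2 calls against WT cells became 4 with median centring, 38 with log2(value + 64), 45 among genes above the median level, 6 with probe sets one by one, 34 with a trended robust variance, 7 with array weights, and 1 to 14 without 1 array. The 20 calls against Gli2R Tg cells became 78, 128, 35, 101 and 34 with the larger constant, the brighter genes, probe sets, the trended robust variance and array weights, 12 with the compared groups alone, and 6 to 34 without 1 array. Leaving out both Gli2A Tg arrays that stand apart, chosen after seeing the data, gave 7023 calls for stimulation and 7 against Gli2R Tg cells.

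Of 380 named called genes 316 kept direction and call under every alternative run, 60 lost the call under at least 1 and 11 turned sign under at least 1. Several probe sets were present for 194 of the 380, and in 50 of these the probe sets differed in sign. With the mean of probe sets the sign turned for Acly (-0.23), Atic (0.54), Bcl2 (0.38), Jund (0.12), Lss (-0.25), Ndufb7 (-0.012), Nfkbiz (0.42) and Smad4 (0.24). Median centring turned Prps2 (0.020), and the deposited scaling Smurf1 (-0.0092) and Uqcrb (-0.033). Genes that were not called also turned: Slco4a1 (-0.088) with the mean of probe sets, Slco4a1 (-0.0094), Egr1 (0.20) and Lat (0.34) with median centring, and Slco4a1 (-0.18), Cd40lg (-0.063), Egr1 (0.027), Gli1 (-0.0089) and Lat (0.16) with the deposited scaling. Without 1 array their values ran from -0.43 to 0.51 for Cd40lg, from -0.30 to 0.066 for Egr1, from -0.28 to 0.0078 for Gata3, from -0.18 to 0.29 for Gli1, from -0.33 to 0.035 for Il10, from -0.15 to 0.92 for Il13, from -0.30 to 0.53 for Il3 and from -0.20 to 0.088 for Lat. With the deposited scaling the Hedgehog pathway held 3 rises and 5 falls, chemokine receptors 3 rises, effector factors 7 falls, cytokine ligands 4 falls and the BCL-2 family 5 falls, and median centring left 9 falls in the mitochondrial ribosome. Some genes not called in the main fit were called, in the same direction, under some alternatives. Among them were Foxp3 (9 of 17), Notch1 (8 of 17), Fos (6 of 17), and Ncl and Nfkbia (5 of 17 each). Others were Asns (4 of 17), Gli2 and Itgam (4 of 16 each), and Junb and Rela (2 of 17 each). Unless a construction is named, the cause was not tested.

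The labels do not say whether same-numbered arrays were paired. Their deviations correlated at 0.0743 to 0.121 in Gli2A Tg cells, against -0.102 to -0.000346 for resting and stimulated arrays of different numbers. Deviations from a mean of 3 arrays cancel within a group, so this contrast is partly built in. In Gli2R Tg cells the values overlapped, at -0.00735 to 0.146 for the same and -0.144 to 0.091 for different numbers. In WT replicate 1 the Y-linked Eif2s3y read 10.75 at rest and 4.06 after stimulation. In Gli2R Tg replicates 1 and 3 it read 5.50 and 4.99 at rest and 11.46 and 11.60 after stimulation. Those same-numbered arrays were therefore not from the same mouse. Whether the numbers mark a pairing in Gli2A Tg cells was not tested. With the replicate number as a block 7875 genes were called for stimulation, 3 against WT and 17 against Gli2R Tg cells. No detection calls were used, so folds of dim genes are compressed by the added constant.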
